A study of Mus musculus with 31 samples.

Results

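Expression of 10 genes of the Notch pathway was followed in the mouse uterus with and without estradiol. They were the ligands Dll1, Dll4, Jag1 and Jag2, the receptors Notch1, Notch2, Notch3 and Notch4, and the target genes Hes1 and Hey1. They were chosen by name, as every array probe annotated with one of these genes, in all 8 groups of the study. This gave 13 of the 55681 probes on the array. All 13 passed the filter, which kept a probe if all arrays of any 1 group had it well above background, and left 40332 probes for 27056 genes. For each gene 1 probe was above background on all 31 arrays. Dll1, Notch1 and Notch2 each had a further, dimmer probe.

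Notch receptors sit in the cell membrane and are activated by ligands on a neighbouring cell. Ligand binding leads to cleavage of the receptor, and its freed intracellular part enters the nucleus, joins the DNA-binding protein RBPJ and switches on target genes such as those of the Hes and Hey families. In the uterus the pathway is known for parts in epithelial differentiation, in the response of the stroma to early pregnancy and in the growth and cover of blood vessels.

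The study asked how 2 functions of estrogen receptor α contribute to the response of the uterus to 17β-estradiol (E2). Mice of an AF2 line on C57BL6/J and of a MISS line on C57BL6/N, wild-type (WT) or mutant (labelled KO) in each line, received castor oil with E2 at 8 µg/kg or without it (placebo), under the skin. The ovaries of all mice were removed at an age of 4 weeks, followed by 3 weeks of rest on normal chow, and tissue was taken 6 h after the injection. By background knowledge that the labels do not give, the AF2 mutant receptor lacks activation function 2, through which hormone-bound receptor recruits coactivators, and the MISS mutant receptor cannot be palmitoylated, is missing from the membrane and still acts in the nucleus. The labels call both KO, yet both lines make a mutant receptor rather than none. Each of the 8 groups held 4 arrays except AF2 KO with E2, which held 3. Line and substrain cannot be told apart. The labels do not say that arrays of a group came from separate animals, so p-values measure the spread between these samples. Whole uterus was measured, so fewer cells of a type and less RNA per cell cannot be told apart.

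Between 61.8% and 77.1% of probes per array were well above background, the 75th percentile of the signal lay between 475 and 918 intensity units, and no spot was saturated. The arrays lie on 4 slides, each with 1 array per group except that 1 slide lacks AF2 KO with E2. All 9 of 9 marker genes of the uterus were well above background on all arrays. Levels below are log2 signal minus the 75th percentile of the array. They compare samples for 1 probe, never 1 gene with another. Replicate numbers only name arrays. A call is an adjusted p under 0.05 in limma, with Benjamini-Hochberg adjustment over the 27056 genes.

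E2 raised the ligands Dll1 and Jag2 and the target Hey1, and lowered the ligand Jag1 and the receptor Notch2, in WT uterus of both lines and in MISS KO uterus. No member was called in AF2 KO uterus. Hes1 and Notch4 rose in AF2 WT uterus, and Dll4 fell in AF2 WT and MISS KO uterus. Under some other settings Hes1 was called as higher in MISS WT and MISS KO uterus too. Notch3 was called as lower in MISS KO uterus, a call that changed with single arrays and with the scaling, and the 2 probes of Notch1 moved in opposite directions. The plot of levels shows every array, and the plot of changes the size and interval of each response.

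With E2 5 members rose and 3 fell in AF2 WT uterus, where 57.6% of all genes tested were called, 27.6% as higher and 30.1% as lower. In MISS WT uterus 3 rose and 3 fell, against 62.2% of all genes, 35.1% higher and 27.1% lower. In MISS KO uterus 3 rose and 5 fell, against 57.3%, 30.1% higher and 27.2% lower. The counts and medians here read Notch1 by its brighter probe. That probe is among the falls in MISS WT and MISS KO uterus, while the further Notch1 probe rose there. These shares of members are not read as particular to the Notch genes, since most genes of the array were called. The median change over the members was 0.05 in AF2 WT, -0.08 in MISS WT and -0.20 in MISS KO uterus, beside -0.07, 0.16 and 0.03 over all genes. For AF2 KO uterus limma called 0 of 10 members, while 1 had an unadjusted p under 0.05 (the brighter Notch1 probe) and 0 were called under every other setting tried. There 3.68% of all genes were called at an adjusted p under 0.05, and the medians were 0.01 for the members and 0.04 for all genes.

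**Figure D1:**
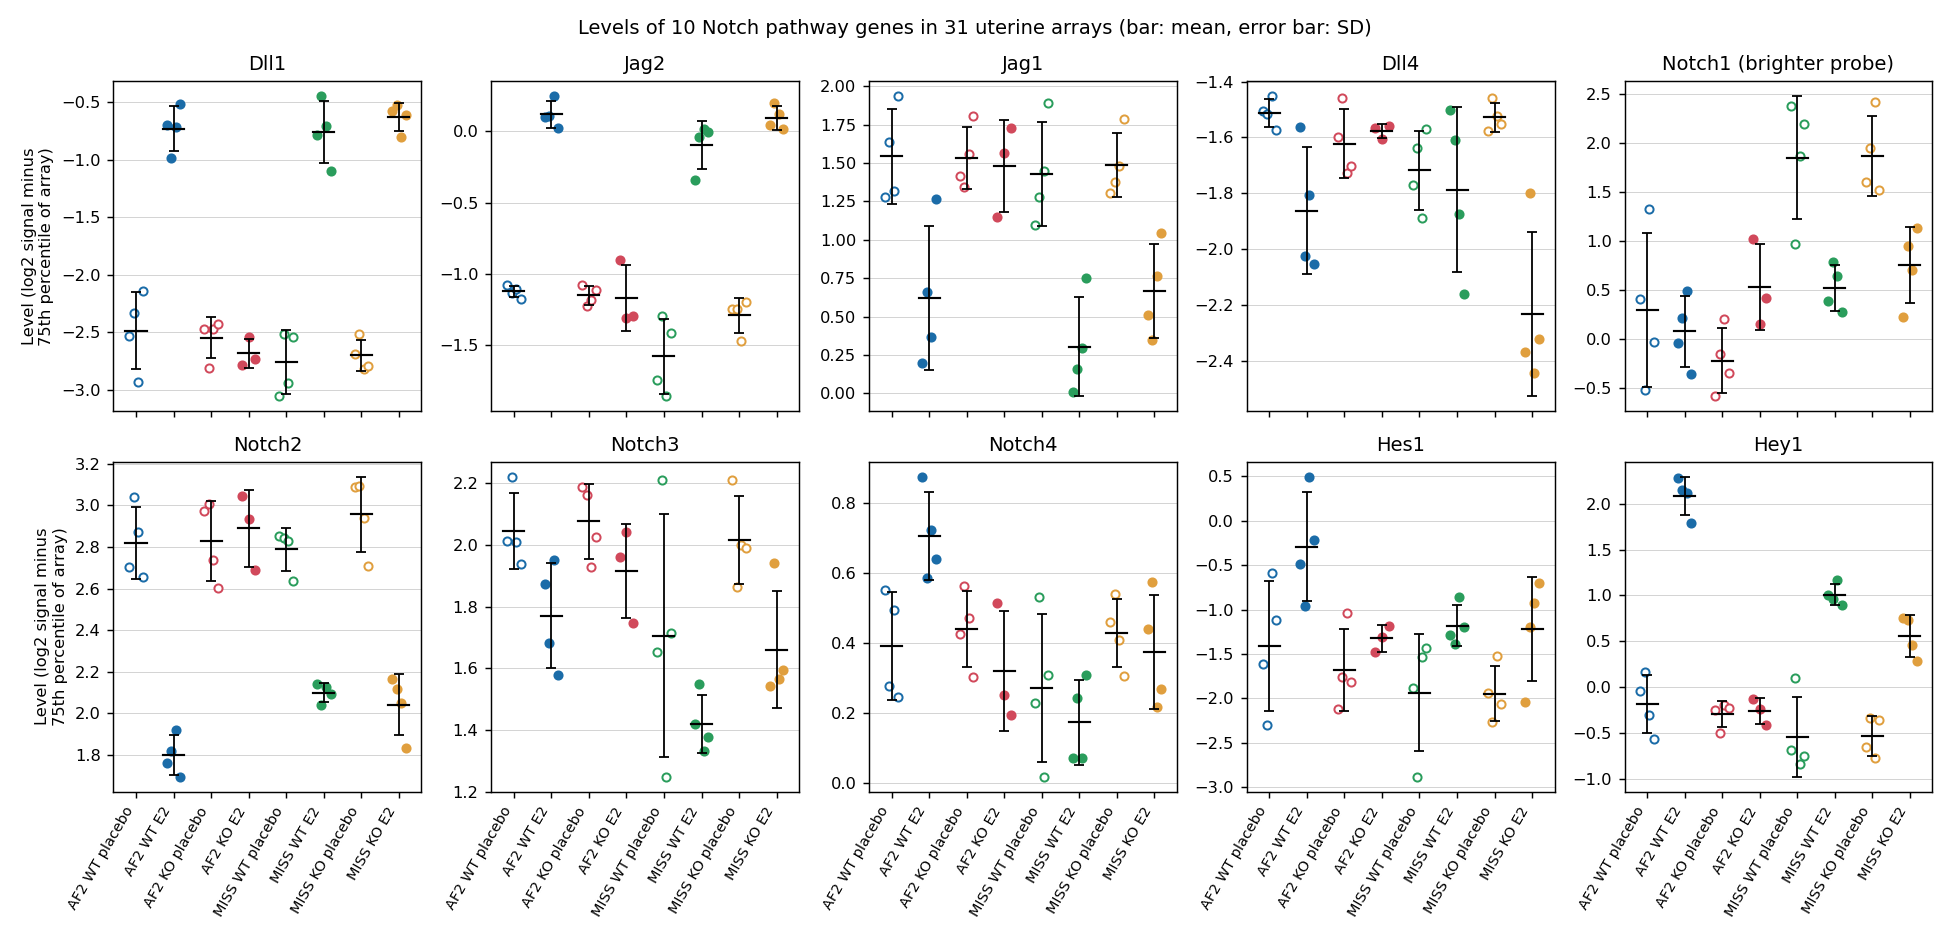
Level of each of the 10 genes (y axis, log2 signal minus the 75th percentile of the array) in the 8 groups, 1 circle per array, with placebo open and E2 filled, the bar at the mean and the error bar 1 SD. Dll1, Jag2 and Hey1 stand higher and Notch2 lower with E2 in AF2 WT, MISS WT and MISS KO uterus, while both AF2 KO groups overlap for these genes.

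Dll1, a Delta-type ligand, had the largest response among the ligands. Its levels in AF2 WT uterus were -2.53, -2.33, -2.93 and -2.14 with placebo and -0.69, -0.99, -0.72 and -0.51 with E2. In MISS WT uterus they were -3.06, -2.51, -2.94 and -2.54 with placebo and -0.79, -0.45, -0.71 and -1.10 with E2, and in MISS KO uterus -2.68, -2.51, -2.82 and -2.79 with placebo and -0.58, -0.52, -0.80 and -0.61 with E2. In all 3 every E2 array lay above every placebo array by more than a log2 unit. The rise was 1.76 ± 0.16 (log2, SE; 3.38-fold; adjusted p = 2.31e-10) in AF2 WT, 2.0 ± 0.16 (4.00-fold; 1.39e-11) in MISS WT and 2.07 ± 0.16 (4.21-fold; 8.25e-12) in MISS KO uterus. AF2 KO uterus read -2.47, -2.81, -2.47 and -2.43 with placebo and -2.78, -2.54 and -2.73 with E2. These groups overlapped, and the difference was -0.14 ± 0.17 (95% interval -0.48 to 0.21). The probe lies at chr17:15504623-15504682 (mm9). The further Dll1 probe, at chr17:15513726-15513785, was well above background on 13 of 31 arrays. In MISS WT uterus it was so on 3 of 4 arrays with E2 and 0 of 4 with placebo, a difference of at least 1.50-fold. In AF2 WT uterus it was so on 1 of 4 with E2 and 2 of 4 with placebo. The counts were 0 of 4 and 1 of 4 in MISS KO and 3 of 3 and 3 of 4 in AF2 KO uterus. This probe thus did not show the rise of the brighter one in AF2 WT or MISS KO uterus.

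Jag2, a Jagged-type ligand, moved with Dll1. In AF2 WT uterus it read -1.08, -1.13, -1.10 and -1.17 with placebo and 0.10, 0.11, 0.25 and 0.02 with E2. In MISS WT uterus it read -1.74, -1.30, -1.86 and -1.41 with placebo and -0.34, -0.04, 0.02 and -0.00 with E2, and in MISS KO uterus -1.25, -1.24, -1.47 and -1.20 with placebo and 0.04, 0.20, 0.12 and 0.01 with E2. Again no E2 array overlapped the placebo arrays of its genotype. Jag2 rose by 1.24 ± 0.11 (2.37-fold; adjusted p = 2.15e-10), 1.49 ± 0.11 (2.80-fold; 4.98e-12) and 1.38 ± 0.11 (2.61-fold; 2.29e-11) in AF2 WT, MISS WT and MISS KO uterus. The AF2 KO levels of -1.08, -1.23, -1.18 and -1.11 with placebo overlapped those of -0.90, -1.31 and -1.30 with E2, a difference of -0.02 ± 0.12 (95% interval -0.26 to 0.23). Its probe is at chr12:114146887-114146946 (mm9). Over the 31 arrays Dll1 and Jag2 correlated at r = 0.957, a value that the shared E2 and placebo groups and slides enter.

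The promoters of both ligands are shown because the 2 genes move together. They are the 250 bases before the RefSeq gene start (GRCm38.p6), with the GC box GGGCGG, or its reverse CCGCCC, in capitals. Dll1 (chr17:15375824-15376073, minus strand) holds none, and a second Dll1 entry holds none either. Jag2 (chr12:112929496-112929745, minus strand) holds 5 matches, of which 2 overlap.
Dll1: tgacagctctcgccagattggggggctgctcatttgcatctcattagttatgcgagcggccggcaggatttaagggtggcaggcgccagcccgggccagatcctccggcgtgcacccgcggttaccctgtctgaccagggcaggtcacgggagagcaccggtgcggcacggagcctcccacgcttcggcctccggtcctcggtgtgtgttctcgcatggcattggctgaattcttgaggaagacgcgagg
Jag2: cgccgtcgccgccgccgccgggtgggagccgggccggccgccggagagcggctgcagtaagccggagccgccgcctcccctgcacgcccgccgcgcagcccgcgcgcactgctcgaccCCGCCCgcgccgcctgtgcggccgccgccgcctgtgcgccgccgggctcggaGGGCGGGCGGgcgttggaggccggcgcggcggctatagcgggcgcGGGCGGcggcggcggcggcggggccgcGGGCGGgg
Of the 10 genes 8, the ligands and receptors, had a promoter in the RefSeq table. The target genes Hes1 and Hey1 had no entry there, so their promoters were not searched. On both strands, 0 of these 8 held the RBPJ core TGGGAA (21.6% of 32851 promoters hold it), 0 the palindromic estrogen response element (0.0517%) and 0 the E box CACGTG (6.02%), to which Hes-type and Hey-type proteins are known to bind. The GC box, a motif added after the sequences were seen, was in 5 of the 8 (Dll4, Jag2, Notch1, Notch2 and Notch3; 32.7% of promoters). These are matches of letters in 1 window and say nothing of binding.

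Jag1, the other Jagged-type ligand, fell where Jag2 rose. With placebo and then E2, AF2 WT uterus read 1.28, 1.64, 1.32 and 1.94 and then 0.20, 0.66, 0.37 and 1.26. MISS WT uterus read 1.09, 1.28, 1.45 and 1.89 and then 0.01, 0.16, 0.30 and 0.75, and MISS KO uterus 1.30, 1.38, 1.48 and 1.79 and then 0.51, 0.35, 0.76 and 1.05. The highest E2 array stayed below the lowest placebo array in each of the 3. The falls were 0.92 ± 0.22 on the log2 scale (adjusted p = 0.000692), 1.12 ± 0.22 (6.79e-05) and 0.82 ± 0.22 (0.00207) in AF2 WT, MISS WT and MISS KO uterus. Within slides the Jag1 response ran from -1.08 to -0.67 in AF2 WT uterus. It ran from -1.15 to -1.09 in MISS WT and from -1.03 to -0.72 in MISS KO uterus. AF2 KO uterus read 1.42, 1.35, 1.56 and 1.81 with placebo and 1.15, 1.56 and 1.73 with E2, groups that overlapped (-0.05 ± 0.24; 95% interval -0.54 to 0.43). The probe is at chr2:136907433-136907492 (mm9).

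Dll4, the Delta-type ligand best known from sprouting vessels, gave a less even picture. In MISS KO uterus it read -1.58, -1.46, -1.52 and -1.55 with placebo and -2.37, -1.80, -2.44 and -2.32 with E2. All E2 arrays were lower, a fall of 0.71 ± 0.13 on the log2 scale (adjusted p = 4.89e-05). In AF2 WT uterus it read -1.51, -1.52, -1.45 and -1.57 with placebo and -1.56, -2.03, -1.81 and -2.06 with E2, where 1 E2 array lay among the placebo arrays. That fall of 0.35 ± 0.13 (adjusted p = 0.026) lost its call in the authors' matrix and with median scaling, normexp or quantile normalization (changes of -0.25 to -0.13) and without AF2 WT E2 replicate 2 (-0.30) or 4 (-0.29) or placebo replicate 3 (-0.33). In MISS WT uterus Dll4 read -1.77, -1.64, -1.89 and -1.57 with placebo and -1.50, -1.61, -1.88 and -2.16 with E2 (-0.07 ± 0.13; adjusted p = 0.66). These groups overlapped, with 1 E2 array above and 1 below all placebo arrays. The AF2 KO difference was 0.05 ± 0.14. Its probe is at chr2:119160779-119160838 (mm9).

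**Figure D2:**
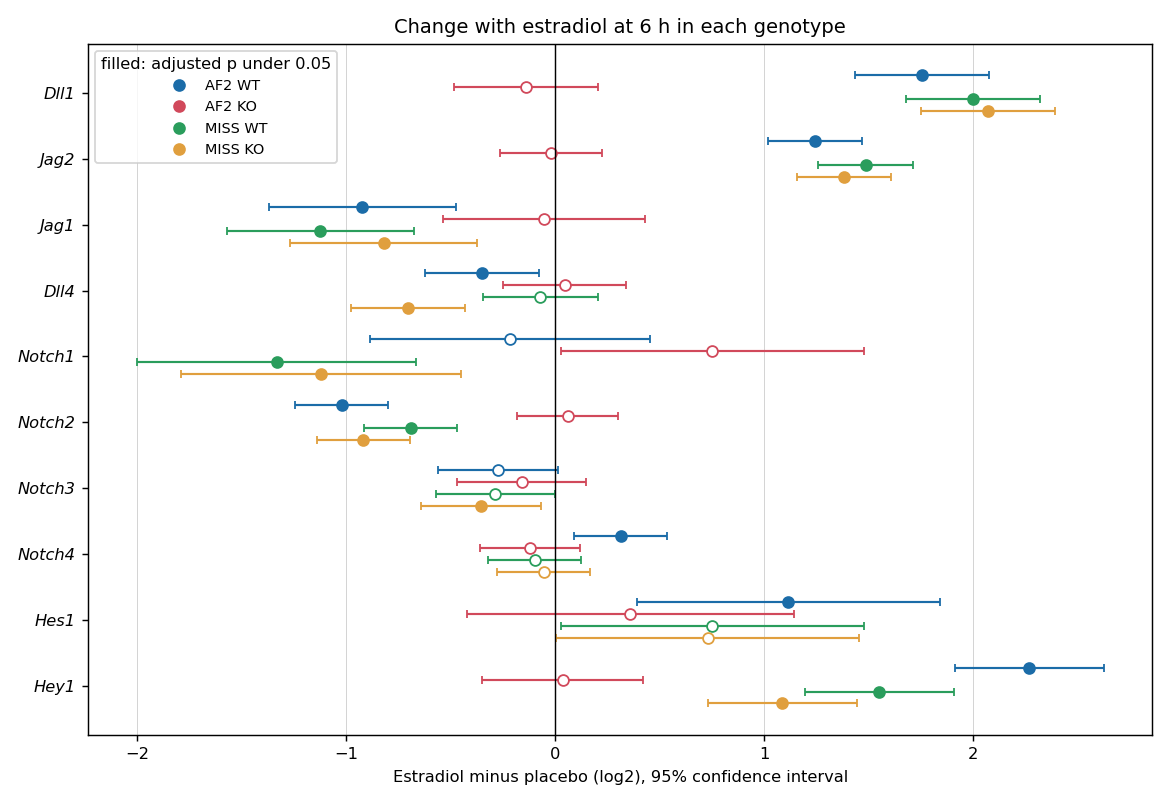
Difference between E2 and placebo (x axis, log2) for each of the 10 genes (y axis) in the 4 genotypes, with 95% confidence intervals; filled points have an adjusted p under 0.05. Dll1, Jag2 and Hey1 lie to the right of 0 and Jag1 and Notch2 to the left in AF2 WT, MISS WT and MISS KO uterus, while no AF2 KO point is filled. Notch1 is shown by its brighter probe.

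Among the receptors Notch2 gave the clearest response, a fall. AF2 WT uterus read 2.70, 3.04, 2.87 and 2.66 with placebo and 1.76, 1.82, 1.92 and 1.69 with E2. MISS WT uterus read 2.85, 2.85, 2.83 and 2.63 with placebo and 2.14, 2.04, 2.13 and 2.09 with E2, and MISS KO uterus 3.09, 3.09, 2.94 and 2.71 with placebo and 2.16, 2.12, 2.05 and 1.83 with E2. The groups did not overlap in any of the 3. Notch2 fell by 1.02 ± 0.11 (2.03-fold; adjusted p = 6.45e-09), 0.69 ± 0.11 (1.61-fold; 3.59e-06) and 0.92 ± 0.11 (1.89-fold; 3.92e-08) on the log2 scale. The AF2 KO levels of 2.97, 3.01, 2.74 and 2.60 with placebo spanned nearly the same range as those of 3.05, 2.94 and 2.69 with E2 (0.06 ± 0.12; 95% interval -0.18 to 0.30). This probe is at chr3:97953914-97953973 (mm9). The further, dimmer Notch2 probe, at chr3:97951233-97951292, fell in MISS KO uterus (by 0.47 ± 0.15; adjusted over all probes, 0.00705). It was not called in AF2 WT (-0.03 ± 0.15) or MISS WT uterus (-0.22 ± 0.15). The 2 Notch2 probes thus had the same sign in these 3 genotypes but not the same calls. Their difference between the AF2 KO and AF2 WT responses was 1.08 ± 0.16 for the brighter and -0.05 ± 0.21 for the further probe.

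The Notch2 promoter (RefSeq, GRCm38.p6, chr3:98013288-98013537, plus strand), shown as that of the receptor with the clearest response, holds 5 GC boxes, in capitals.
Notch2: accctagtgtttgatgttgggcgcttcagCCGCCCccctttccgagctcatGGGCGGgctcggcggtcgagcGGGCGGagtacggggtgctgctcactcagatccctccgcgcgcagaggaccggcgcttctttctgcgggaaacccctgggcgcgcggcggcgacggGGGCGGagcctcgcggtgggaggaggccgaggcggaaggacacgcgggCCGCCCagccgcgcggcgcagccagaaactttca

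Notch1 had 2 probes above background on all arrays, and they went opposite ways, so no direction is given for the gene. The brighter probe, at chr2:26319440-26319499 (mm9), spread widely. In AF2 WT uterus it read 0.41, -0.53, 1.32 and -0.03 with placebo and -0.04, 0.22, 0.49 and -0.36 with E2, which overlapped. In MISS WT uterus it read 2.38, 0.97, 1.87 and 2.19 with placebo and 0.38, 0.79, 0.64 and 0.27 with E2, and in MISS KO uterus 1.60, 1.95, 2.42 and 1.52 with placebo and 0.23, 0.95, 0.70 and 1.13 with E2. In each of these 2 genotypes all placebo arrays lay above all E2 arrays, though MISS WT placebo replicate 2 lay below MISS KO E2 replicate 4. The change was -0.22 ± 0.33 (adjusted p = 0.598) in AF2 WT, -1.33 ± 0.33 (0.000882) in MISS WT and -1.12 ± 0.33 (0.00436) in MISS KO uterus, and 0.75 ± 0.35 (0.267) in AF2 KO uterus.

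The further Notch1 probe, at chr2:26314630-26314689 (mm9), rose where Dll1 rose. It read -4.18, -4.43, -4.11 and -4.31 with placebo and -3.27, -3.09, -3.06 and -2.78 with E2 in AF2 WT uterus, without overlap. It rose by 1.21 ± 0.18 (adjusted p over the 40332 probes = 1.38e-06) there, by 1.42 ± 0.18 (8.04e-08) in MISS WT and by 1.34 ± 0.18 (2.50e-07) in MISS KO uterus. AF2 KO arrays stood at -4.36, -4.51, -3.71 and -4.10 with placebo and -4.05, -3.82 and -3.93 with E2, which overlapped (0.24 ± 0.19; 0.604). Over the 31 arrays the 2 Notch1 probes correlated at -0.45. With the further probe standing for Notch1, 6 members rose and 3 fell in AF2 WT, 4 and 2 in MISS WT, and 4 and 4 in MISS KO uterus.

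The 2 probes are shown as 30 of their 60 letters, beside the probes of Slc16a7 and Trpm1, which were among the 3 probes that followed the brighter Notch1 probe most closely. Capitals mark the longest run of letters each shares with the brighter Notch1 probe (in that probe itself, the repeat).
Notch1: gcaacagtGAAGAAGAAGAAGAtgcacctg
Notch1 further probe: aaaaaagaacgtGACAGGagaagggaagct
Slc16a7: agagaaggcaAAGAAGAAGAAGtcagcttc
Trpm1: aagaagaaaAAGAAGAAGAAGAaagaggaa
The Slc16a7 probe followed the brighter Notch1 probe at r = 0.995 and the Trpm1 probe at 0.991 over the 31 arrays. Of tested probes with a value on every array another 77 hold the run GAAGAAGAAGA. Their median correlation with the brighter Notch1 probe was 0.871, and 36 of them (46.8%) were above 0.9. Over the 40179 such probes without the run the median was -0.0057 and 35 (0.0871%) were above 0.9. The median change of the probes with the run was -0.58 in MISS WT and 0.52 in AF2 KO uterus, against 0.15 and 0.05 for probes without it. This run was chosen after the values were seen, and its part in the Notch1 reading was not tested. The plot of both Notch1 probes shows their opposite courses.

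**Figure D3:**
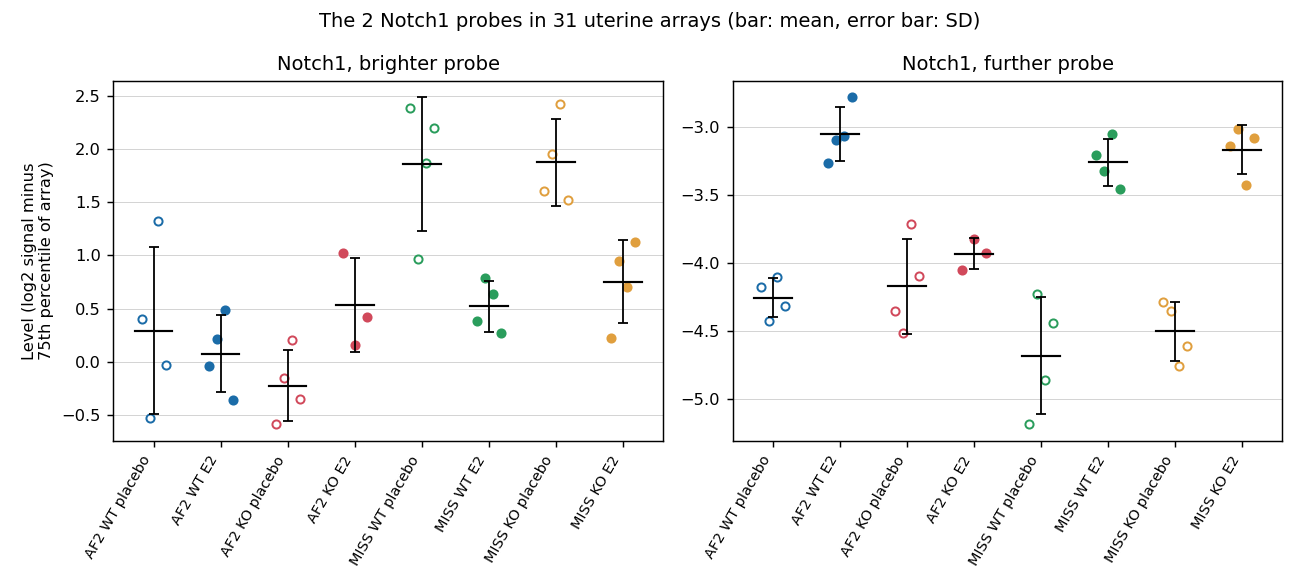
Level of the brighter and of the further Notch1 probe (y axis, log2 signal minus the 75th percentile of the array) in the 8 groups, 1 circle per array, placebo open and E2 filled, bar at the mean, error bar 1 SD. The brighter probe has its highest group means with placebo in the MISS line, while the further probe is highest on the E2 arrays of AF2 WT, MISS WT and MISS KO uterus.

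Notch3, the receptor typical of pericytes and smooth muscle cells of vessels, had E2 responses of -0.27 ± 0.14 (adjusted p = 0.0951) in AF2 WT, -0.29 ± 0.14 (0.0765) in MISS WT, -0.35 ± 0.14 (0.0312) in MISS KO and -0.16 ± 0.15 in AF2 KO uterus. The called fall in MISS KO uterus rested on levels of 2.21, 1.86, 2.0 and 1.99 with placebo and 1.54, 1.94, 1.57 and 1.59 with E2. MISS KO E2 replicate 2 lay among the placebo arrays, and on its slide the difference was 0.079. The uncalled falls gained a call in the authors' matrix (-0.49 in AF2 WT, -0.48 in MISS WT) and with quantile normalization (-0.49 in both). AF2 WT was also called without MISS WT placebo replicate 2 (-0.27; 0.0429), and MISS WT with the slide as a block (-0.29; 0.0475) and without MISS WT placebo replicate 3 (-0.44; 0.00516). The MISS KO call was lost without MISS KO E2 replicate 1 (-0.32), 3 (-0.32) or 4 (-0.33), without placebo replicate 1 (-0.29), and with median scaling (-0.23). Of 7 markers of mural cells, which the uterus holds around its vessels, 6 fell in AF2 WT, 7 in MISS WT, 6 in MISS KO and 0 in AF2 KO uterus. Their medians were -0.92, -1.26, -1.05 and -0.20, beside Notch3 changes of -0.27, -0.29, -0.35 and -0.16. Of all genes 30.1%, 27.1% and 27.2% were called as lower in the first 3, and 3.68% either way in AF2 KO uterus. The log2 of the summed signal of the mural markers went from 4.58 to 4.82 with placebo to 3.87 to 4.07 with E2 in AF2 WT uterus. It went from 4.39 to 4.66 to 3.31 to 3.54 in MISS WT uterus and from 4.49 to 4.60 to 3.59 to 3.85 in MISS KO uterus. The AF2 KO values lay between 4.54 and 4.76 and between 4.49 and 4.53. All 7 markers were well above background on all arrays, and their part in the Notch3 values was not tested. The Notch3 probe is at chr17:32257848-32257907 (mm9).

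Notch4, the receptor typical of endothelium, was highest in AF2 WT uterus with E2. There it read 0.88, 0.58, 0.72 and 0.64, above the 0.55, 0.28, 0.49 and 0.24 of placebo and above every array of the other groups. The rise was 0.31 ± 0.11 (adjusted p = 0.015), and it lost its call without AF2 WT E2 replicate 1 (0.26) or placebo replicate 2 (0.28) or 4 (0.26). The change was -0.12 ± 0.12 in AF2 KO, -0.10 ± 0.11 in MISS WT and -0.05 ± 0.11 in MISS KO uterus, each with overlapping groups. Of 15 endothelial markers 6 rose and 1 fell with E2 in AF2 WT uterus, and 6 rose and 2 fell in MISS WT and in MISS KO uterus. In the same order, 27.6%, 35.1% and 30.1% of all genes were called as higher and 30.1%, 27.1% and 27.2% as lower. The marker counts are not read as particular to endothelium. The part of these markers in the Notch4 values was not tested. The Notch4 probe is at chr17:34725120-34725179 (mm9).

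Hey1, a transcriptional repressor that Notch induces, had the largest rise of any member in AF2 WT uterus. AF2 WT uterus read -0.04, 0.16, -0.30 and -0.57 with placebo and 2.28, 2.15, 2.12 and 1.79 with E2. MISS WT uterus read -0.68, 0.10, -0.83 and -0.75 with placebo and 1.0, 0.96, 1.17 and 0.90 with E2, and MISS KO uterus -0.66, -0.34, -0.77 and -0.36 with placebo and 0.75, 0.73, 0.46 and 0.29 with E2. All E2 arrays lay above all placebo arrays of their genotype, and the 3 E2 groups did not overlap one another. The rise was 2.27 ± 0.17 (4.82-fold; adjusted p = 1.44e-11), 1.55 ± 0.17 (2.93-fold; 1.38e-08) and 1.09 ± 0.17 (2.12-fold; 5.11e-06). AF2 KO uterus read -0.25, -0.50, -0.19 and -0.22 with placebo and -0.13, -0.23 and -0.41 with E2 (0.04 ± 0.19; 95% interval -0.35 to 0.42), overlapping groups. Hey1 lies at chr3:8663432-8663491 (mm9) by its probe.

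Hes1, the other repressor among the Notch targets, varied far more between arrays of 1 group. AF2 WT uterus read -1.62, -2.30, -0.59 and -1.12 with placebo and -0.49, -0.96, 0.50 and -0.22 with E2, where 3 of 4 E2 arrays lay above all placebo arrays and the other lay below 1 of them. It rose by 1.12 ± 0.35 (adjusted p = 0.00825), and without AF2 WT placebo replicate 2 the rise was 0.82 (0.0535). MISS WT uterus read -1.89, -2.88, -1.54 and -1.43 with placebo and -1.28, -1.39, -0.86 and -1.20 with E2, groups that did not overlap, and MISS KO uterus read -1.94, -2.26, -1.52 and -2.06 with placebo and -2.04, -1.19, -0.93 and -0.70 with E2, which did. The differences were 0.75 ± 0.35 (0.0661) in MISS WT and 0.73 ± 0.35 (0.0804) in MISS KO uterus, not called. With the slide as a block both were called, 0.75 (0.00713) and 0.73 (0.00936), and within the 4 slides they ran from 0.24 to 1.49 and from -0.11 to 1.36. MISS WT was also called in the authors' matrix (0.71), with median scaling (0.80) and with quantile normalization (0.83). It was called too without AF2 WT placebo replicate 2 (0.75) or MISS WT placebo replicate 3 (0.88) or 4 (0.92). MISS KO was called with median scaling (0.85), with quantile normalization (0.81) and without MISS KO E2 replicate 1 (1.01). The AF2 KO difference was 0.36 ± 0.38. The probe is at chr16:30067820-30067879 (mm9).

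The question of the AF2 comparison is which E2 responses need activation function 2. With E2, AF2 KO uterus had less Dll1, Jag2, Hey1, Hes1 and Notch4 and more Jag1 and Notch2 than AF2 WT uterus. That is 5 members lower and 2 higher, where 57% of all genes were called, 26.9% lower and 30.1% higher. With placebo 0 of 10 members were called and 0 had an unadjusted p under 0.05 in limma, with differences between -0.52 and 0.05 and 9.04% of all genes called. No member was called there under any other setting either.

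The test of the difference between the 2 responses (AF2 KO minus AF2 WT) called 6 members, 2 higher and 4 lower, where 51.9% of all genes were called, 29% higher and 22.9% lower. The difference was -2.23 ± 0.26 for Hey1 (adjusted p = 5.56e-08), -1.89 ± 0.23 for Dll1 (1.33e-07), -1.26 ± 0.16 for Jag2 (3.32e-07) and 1.08 ± 0.16 for Notch2 (2.82e-06). These 4 kept their calls under every setting and with each array left out. The further probes of Dll1 and Notch2 did not stand alone for these genes in any setting, and their own differences were not called. The difference for Jag1 was 0.87 ± 0.32 (0.0254). It was not called with median scaling (0.47) or without AF2 KO E2 replicate 2 (0.83) or 3 (0.74), AF2 WT E2 replicate 1 (0.73) or 3 (0.78), or AF2 WT placebo replicate 4 (0.74).

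The difference for Notch4 was -0.43 ± 0.16 (0.0247), lost in the authors' matrix (-0.36), with quantile normalization (-0.37) and without AF2 KO E2 replicate 2 (-0.40) or 3 (-0.37), AF2 KO placebo replicate 2 (-0.39), AF2 WT E2 replicate 1 (-0.38) or AF2 WT placebo replicate 4 (-0.38). Hes1 had a difference between responses of -0.76 ± 0.52 (0.229), called with the slide as a block (-0.90; 0.0289). Its lower level in AF2 KO than in AF2 WT uterus with E2 (-1.03 ± 0.38; 0.0226) was lost without AF2 KO E2 replicate 1 (-0.95) or AF2 WT E2 replicate 3 (-0.77). Dll4 had a difference between responses of 0.40 ± 0.20 (0.0926), called with the slide as a block (0.43; 0.042) and without AF2 WT E2 replicate 1 (0.50). For Notch3 it was 0.11 ± 0.21. The brighter Notch1 probe gave 0.97 ± 0.48 (0.093; 1.24 and called without AF2 WT placebo replicate 2) and the further one -0.97 ± 0.26 (0.00278).

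The MISS comparison asks the same of the receptor at the membrane. No member was called between MISS KO and MISS WT uterus with placebo, with E2 or in the difference between responses, where 0.85%, 2.82% and 0.898% of all genes were called. At an unadjusted p under 0.05 limma gave 2 members with placebo (Jag2 0.29 ± 0.11 and Notch3 0.31 ± 0.14, both higher in KO), 2 with E2 (Dll4 and Hey1, both lower in KO) and 1 in the difference between responses (Dll4). The share of all genes at that unadjusted threshold is not given.

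The interval of the difference between responses was -0.38 to 0.52 for Dll1, -0.42 to 0.22 for Jag2, -0.33 to 0.94 for Jag1, -0.54 to 0.09 for Notch2 and -1.05 to 1.0 for Hes1. These do not show that the 2 genotypes respond alike. For Dll4 the difference was -0.64 ± 0.19 (95% interval -1.02 to -0.25; adjusted p = 0.125), between -1.06 and -0.18 within the 4 slides. With the slide as a block it was called (-0.64; 0.0399), as it was without MISS KO E2 replicate 2 (-0.78) or MISS WT E2 replicate 4 (-0.76). With E2 alone Dll4 differed by -0.45 ± 0.13 between MISS KO and MISS WT uterus (0.0712), called with the slide as a block (0.0266) and without those same arrays (-0.59 and -0.57). Hey1 with E2 differed by -0.45 ± 0.17 (0.209) although its groups did not overlap, and its difference between responses was -0.46 ± 0.25 (95% interval -0.97 to 0.04). Jag1 with E2 differed by 0.36 ± 0.22, called with the slide as a block (0.0326).

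The WT groups of the 2 lines differed for 2 members with placebo, where 11.7% of all genes were called, 3.04% higher and 8.61% lower. Jag2 was lower in MISS WT than in AF2 WT uterus (-0.46 ± 0.11; adjusted p = 0.0062) without overlap, though not with median scaling (-0.32; 0.0531). The brighter Notch1 probe was higher (1.56 ± 0.33; 0.00182) with overlap, while the further one was not called (-0.42 ± 0.18; 0.134). Without MISS WT placebo replicate 2, Hey1 (-0.57) and Notch3 (-0.51) were called as lower too.

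For the difference between the 2 WT responses 0 members were called by limma, where 9.5% of all genes were called at an adjusted p under 0.05. At an unadjusted p under 0.05 limma gave 4 members, and the share of all genes at that threshold is not given. Those 4 were Hey1 (-0.72 ± 0.25; 0.0647), Notch4 (-0.41 ± 0.15; 0.0929), the brighter Notch1 probe (-1.12 ± 0.46; 0.133) and Notch2 (0.33 ± 0.15; 0.191). The further Notch1 probe had the opposite sign (0.22 ± 0.25; 0.673, limma, adjusted over all probes). Hey1 was called with median scaling (-0.89; 0.0235), with normexp background correction (-0.69; 0.0417), with the slide as a block (0.0217) and without AF2 WT E2 replicate 4 (-0.82), AF2 WT placebo replicate 2 (-0.83) or MISS WT placebo replicate 3 (-0.82). Within the 4 slides its difference ran from -1.13 to -0.41. Notch4 was called with the slide as a block (0.0356), with median scaling (-0.58) and without MISS WT placebo replicate 3 (-0.50), Notch2 with the slide as a block (0.0258), and the brighter Notch1 probe without AF2 WT placebo replicate 3 (-1.46) or MISS WT placebo replicate 2 (-1.41).

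Ranked by group mean, Hey1 stood at 2.08 ± 0.21 (SD, n = 4) in AF2 WT, 1.01 ± 0.12 in MISS WT and 0.56 ± 0.23 in MISS KO uterus with E2, each without overlap with the next, and the other groups followed from -0.19 downwards. Dll1 had 3 high groups that overlapped one another, MISS KO (-0.63 ± 0.12), AF2 WT (-0.73 ± 0.20) and MISS WT (-0.76 ± 0.27) with E2, and then a gap of 1.72 to the next group. The order of Jag2 was alike, with 0.12 ± 0.09, 0.09 ± 0.08 and -0.09 ± 0.17 in AF2 WT, MISS KO and MISS WT uterus with E2. Notch2 was lowest in AF2 WT uterus with E2 (1.80 ± 0.10), below MISS KO (2.04 ± 0.15) and MISS WT (2.10 ± 0.05), while AF2 KO with E2 (2.89 ± 0.18, n = 3) lay among the placebo groups. In Dll4, Hes1 and Notch3 every group overlapped its neighbour in the order.

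Across the 31 arrays, which share the E2 and placebo groups and the slides, Hey1 correlated with Jag2 at r = 0.878 and with Dll1 at 0.845, and Notch2 with Dll1 at -0.926, with Jag2 at -0.898 and with Hey1 at -0.855. Jag1 and Notch2, which both fell, correlated at 0.694, and Hes1 and Hey1 at 0.585. The genes outside the pathway members with the course most like each member over these arrays were Apold1 for Dll1 (0.985), Fgfr3 for Jag2 (0.988), Bicral for Jag1 (0.971), Snhg18 for Notch2 (0.978), Ndufa4l2 for Notch3 (0.923), Fam160b1 for Notch4 (0.784), Lrrc8e for Hes1 (0.90) and Syn2 for Hey1 (0.958). For Dll4 the most alike named gene was Rnf39 (0.817). Ndufa4l2 is also among the mural cell markers.

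The rest of the pathway was read from lists of 57 genes, of which 55 were measured. In AF2 WT uterus 19 of the 55 rose and 16 fell with E2 (median 0.05), in MISS WT uterus 20 rose and 15 fell (0.13), and in MISS KO uterus 18 rose and 16 fell (-0.04). These counts lie beside 57.6%, 62.2% and 57.3% of all genes called and are not read as particular to the pathway. In AF2 KO uterus, where 3.68% of all genes were called, 1 rose and 0 fell. That gene, Neurl1b, which takes part in ligand endocytosis, changed by 0.64 ± 0.18 (adjusted p = 0.0424). The call was lost in the authors' matrix (0.65), with quantile normalization (0.62), median scaling (0.46) or the mean of all its probes (0.12) and in 6 of the refits with 1 array left out. The plot of the other pathway genes shows the 4 genotypes by role.

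**Figure D4:**
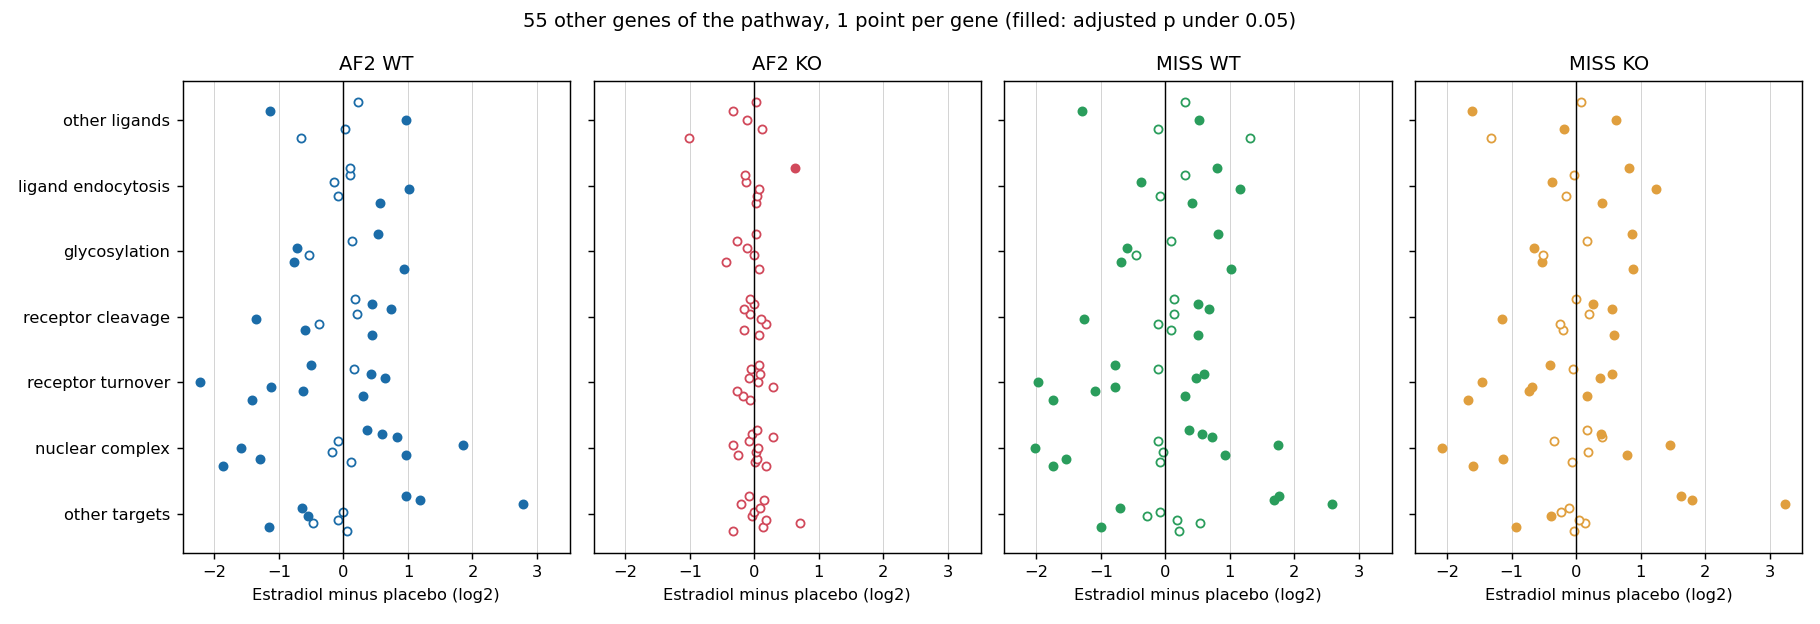
Difference between E2 and placebo (x axis, log2) of the 55 other pathway genes, 1 point per gene, by role (y axis) in the 4 genotypes; filled points have an adjusted p under 0.05. In AF2 KO uterus 1 point is filled, against 35, 35 and 34 in AF2 WT, MISS WT and MISS KO uterus.

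Among targets other than the members, Heyl, a relative of Hey1, rose by 2.79 ± 0.15 (adjusted p = 8.37e-15) in AF2 WT, 2.58 ± 0.15 in MISS WT and 3.23 ± 0.15 in MISS KO uterus, against -0.21 ± 0.16 in AF2 KO uterus. Myc, which drives growth and has many other inputs, rose by 1.19 ± 0.10, 1.68 ± 0.10 and 1.80 ± 0.10, against 0.16 ± 0.11. In all, 3 of 10 other targets rose in each of the 3 responding genotypes, and 3, 2 and 2 fell. Of all genes 27.6%, 35.1% and 30.1% were called as higher in AF2 WT, MISS WT and MISS KO uterus, and 30.1%, 27.1% and 27.2% as lower. The counts by role here and below are not read as particular to a role.

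Of the 11 genes of the nuclear complex, 5 rose and 3 fell in AF2 WT and in MISS WT uterus, and 3 rose and 3 fell in MISS KO uterus. Maml3, a coactivator of cleaved Notch, fell by 1.58 ± 0.13, 2.03 ± 0.13 and 2.08 ± 0.13 on the log2 scale in AF2 WT, MISS WT and MISS KO uterus. Cir1, which binds RBPJ as a corepressor, fell by 1.87 ± 0.12, 1.74 ± 0.12 and 1.61 ± 0.12, and Kat2b, an acetyltransferase, by 1.29 ± 0.12, 1.54 ± 0.12 and 1.13 ± 0.12. In AF2 KO uterus Maml3, Cir1 and Kat2b read 0.05, 0.18 and 0.03, none called.

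At the membrane, Mib1, the ubiquitin ligase that lets ligands be pulled in, rose by 1.02 ± 0.08, 1.15 ± 0.08 and 1.24 ± 0.08 in AF2 WT, MISS WT and MISS KO uterus. Dtx4 fell by 2.22 ± 0.18, 1.98 ± 0.18 and 1.46 ± 0.18 on the log2 scale and Dtx1 by 1.42 ± 0.15, 1.75 ± 0.15 and 1.68 ± 0.15. Both belong to the Deltex ubiquitin ligases, which act on the receptors. Aph1b, a subunit of the γ-secretase that cleaves the receptor, fell by 1.35 ± 0.11, 1.27 ± 0.11 and 1.15 ± 0.11. Of the ligand endocytosis list 2, 3 and 3 of 6 rose in AF2 WT, MISS WT and MISS KO uterus, and 0, 1 and 1 fell. In the receptor turnover list 3 of 9 rose and 5 fell in each of the 3. Among the 8 of receptor cleavage 3 rose in each, and 2, 1 and 1 fell, and among the 6 of glycosylation 2 rose and 2 fell in each. Dner, a ligand of another type, was not well above background on any of the 4 E2 arrays in these 3 genotypes. It was at least 1.88-fold lower in AF2 WT (adjusted p = 0.0206), at least 1.08-fold in MISS WT (0.00849; 3 of 4 placebo arrays measured) and at least 1.65-fold in MISS KO uterus (0.0015). The AF2 WT call was lost without AF2 WT E2 replicate 1 (log2 change -0.99) or 4 (-1.0) or placebo replicate 2 (-0.72), in the authors' matrix (-0.27) and with median scaling (-0.92), normexp (-0.29) or quantile normalization (-0.77). The MISS WT call was lost without MISS WT E2 replicate 1 (-0.97), in the authors' matrix (-0.34) and with normexp (0.051), and the MISS KO call with normexp (-0.19).

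With placebo, 6 of the 55 differed between AF2 KO and AF2 WT uterus, where 9.04% of all genes were called. Dlk1, a Delta-like protein, was higher by 3.17 ± 0.84 (adjusted p = 0.0153), Neurl1a by 0.78 ± 0.19 (0.00922), Ccnd1 by 0.66 ± 0.15 (0.00662) and Dner by 1.31 ± 0.41 (0.0464). Gata3 was lower by 0.65 ± 0.15 (log2 change -0.65; 0.00584) and Myc by 0.55 ± 0.10 (-0.55; 0.000527). Dner lost this call when any 1 of 19 arrays was left out (1.02 to 1.31). The call was also lost with no filter on dim probes (1.31) and with normexp (0.37). No pathway gene was called between MISS KO and MISS WT uterus with placebo, with E2 or in the difference between responses by limma, and 3, 10 and 5 of 55 had an unadjusted p under 0.05. The share of all genes at that unadjusted threshold is not given. With the slide as a block 1 was called with placebo and 4 with E2, and 4 with E2 without MISS WT E2 replicate 4.

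Markers of other cell types moved with E2 as well. Their counts lie beside 27.6%, 35.1% and 30.1% of all genes called as higher in AF2 WT, MISS WT and MISS KO uterus. As lower 30.1%, 27.1% and 27.2% were called there, and 3.68% were called either way in AF2 KO uterus. In AF2 WT, MISS WT and MISS KO uterus 12, 7 and 8 of 15 stromal markers fell and 1, 1 and 2 rose, and 8, 7 and 8 of 15 epithelial markers rose and 1, 3 and 0 fell. In AF2 KO uterus 3 stromal markers fell and 0 epithelial markers were called. Of 14 leukocyte markers 5, 6 and 4 fell and 2, 1 and 3 rose in AF2 WT, MISS WT and MISS KO uterus, and 2 rose in AF2 KO uterus. Of 10 smooth muscle markers 3, 2 and 2 fell and 0, 6 and 5 rose, and 0 were called in AF2 KO uterus. In MISS WT placebo replicate 2 the smooth muscle markers had a mean level of 5.06, against 3.77, 4.19 and 4.00 in replicates 1, 3 and 4. Its leukocyte markers had a mean level of 0.45, against 0.04, -0.36 and -0.48. The log2 of the summed stromal signal lay between 9.20 and 9.46 with placebo and between 8.51 and 8.85 with E2 in AF2 WT uterus, and the epithelial one between 7.22 and 7.61 and between 7.40 and 7.75. In AF2 KO uterus the stromal one lay between 9.41 and 9.71 and between 9.10 and 9.22. The epithelial one lay there between 7.78 and 8.14 with placebo, above AF2 WT placebo without overlap, and between 8.00 and 8.36 with E2. For 7 arterial endothelial markers the placebo values were also higher without overlap, 4.96 to 5.27 in AF2 KO and 4.34 to 4.64 in AF2 WT uterus. The part of these cell types in the responses of the Notch genes was not tested.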

How the data were processed

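RNA of 31 uterus samples was measured on 1-colour Agilent arrays, 1 per sample. The authors read the scans out in Agilent Feature Extraction 10.10.1.1. The signal used is, per the file headers, an intensity after background subtraction, not normalized between arrays, with 0/1 flags for outliers, saturation and signal well above background. Probe positions are mm9, per the file headers. The authors' deposited matrix gives 43753 probes as log2 values with equal column medians of 7.56; its columns correlated with the scanner values at 0.979 or more. How it was normalized is not given in the sources used here, beyond limma in the submitters' processing notes.

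From the deposited intensity, log2 values minus each array's 75th percentile were fitted with limma 3.58.1 in R 4.3.3, as 8 group means and 12 contrasts, after averaging spots of a probe and leaving out flagged outliers. A gene is its tested probe with the highest mean; 27235 probes were named through RefSeq accessions. The fit was tested on simulated data. Alternatives were median scaling, quantile normalization, normexp (offset 50), filters, the authors' matrix, mean of probes, the further Notch1 probe, slide as a block, values within slides and each array left out. The same alternatives for the other pathway genes were added after seeing the data.

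The members and lists were chosen with earlier results of these data known. Named were all members, and other pathway genes called the same way in both WT responses with a log2 change of 1 or more (at most 4 per list), or called between KO and WT with placebo (at most 6). A gene that met this rule is not reported here. Neurl1b was named after its value was seen. Of the 3 most alike genes per member, the first with a gene symbol is given.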

Additional observations from a re-analysis of the deposited data

Results flagged for a closer look

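In 5 of 91 groups of 4 arrays 1 member's level stood far from the rest, which chance gives in about 1 in 20 groups. Dll1 in AF2 KO placebo replicate 2 read -2.81, with the nearest array at -2.47. Hey1 in MISS WT placebo replicate 2 read 0.10, with the nearest at -0.68. Jag2 in MISS WT E2 replicate 1 read -0.34 (nearest -0.04), Notch2 in MISS WT placebo replicate 4 read 2.63 (nearest 2.83) and Notch3 in MISS KO E2 replicate 2 read 1.94 (nearest 1.59).

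The response to E2 differed between AF2 KO and AF2 WT uterus, by the test of the difference itself in limma, for Dll1 (-1.89), Jag2 (-1.26), Jag1 (0.87), Notch2 (1.08), Notch4 (-0.43), Hey1 (-2.23) and the further Notch1 probe (-0.97). The values of Dll1 and Notch2 are those of their brighter probes, and their further probes were not called.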

How the results depend on the processing

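Of 3720 member values recomputed with 1 array left out, 3676 kept their side of the threshold, 21 crossed into a call, 23 lost one and no called value reversed. Of 972 under other settings 929 kept their side, 25 gained a call, 9 lost one and 9 reversed. Among those that kept their side, 66 and 47 values, uncalled in both fits, had the opposite sign. The reversed ones were of Notch1, with the further probe at 1.21, 1.42 and 1.34 (E2 in AF2 WT, MISS WT and MISS KO), -0.88 (AF2 KO against WT with E2), -0.97 (difference of responses) and -0.42 (MISS WT against AF2 WT with placebo), and with the mean of its probes at 0.50, 0.045 and 0.11. Within 1 slide Notch3 read 0.079 in MISS KO. Of the other pathway genes Dner read 0.051 in MISS WT with normexp and Neurl1b -0.021 in MISS KO with the mean of its probes. Heyl, Myc, Mib1, Maml3, Cir1, Kat2b, Dtx4, Dtx1 and Aph1b kept their E2 calls in AF2 WT, MISS WT and MISS KO uterus in every setting and refit. Pathway calls between AF2 KO and WT with placebo went from 6 to 16 (median scaling) and 10 (slide block), and for E2 in AF2 KO from 1 to between 0 and 7.

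With the slide as a block, all-gene calls moved to 5446 (AF2 KO against WT, placebo), 2770 (E2 in AF2 KO), 2016 and 839 (MISS KO against WT, E2 and placebo), 1119 (MISS responses), 5650 (WT lines, placebo) and 5821 (WT responses), and member calls to 2 (MISS KO against WT, E2), 1 (MISS responses) and 3 (WT responses). Median scaling gave 4632 and 2569 genes for the first pair, normexp 3943 and 1672, and 5413 for the WT lines. For E2 in AF2 KO quantile normalization gave 643 and the strict filter 589, against 996. The authors' matrix gave 375 genes for MISS KO against WT with placebo. Members called between the WT lines with placebo went from 2 to 1 with the further Notch1 probe and with median scaling, and in the WT responses from 0 to 2 with median scaling and 1 with normexp. The cause was not tested.

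With 1 array left out, all-gene calls ranged from 1590 (without AF2 WT placebo replicate 3) to 2878 for AF2 KO against WT with placebo, from 252 (without AF2 KO E2 replicate 1) to 1178 for E2 in AF2 KO, from 441 (without MISS WT E2 replicate 1) to 1072 for MISS KO against WT with E2, from 59 to 672 (without MISS WT placebo replicates 3 and 4) with placebo, from 138 (without MISS WT placebo replicate 3) to 357 for the MISS responses, and from 1945 (without AF2 WT placebo replicate 3) to 3719 for the WT lines. Member calls ranged from 0 to 1 for MISS KO against WT with E2 and for the MISS responses, from 2 to 4 for the WT lines with placebo and from 0 to 2 for the WT responses.

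Median scaling moved the median change of all genes from -0.07 to 0.15 in AF2 WT and from 0.04 to -0.13 in AF2 KO uterus, and from 0.18 to -0.21 for the AF2 responses. The split of higher to lower calls went from 7466 and 8131 to 9913 and 6100 in AF2 WT and from 846 and 150 to 665 and 1904 in AF2 KO uterus, from 8138 and 7274 to 6151 and 9351 (AF2 KO against WT, E2), from 913 and 1534 to 3565 and 1067 (placebo), from 7846 and 6209 to 4589 and 9399 (AF2 responses), from 823 and 2330 to 2275 and 1702 (WT lines, placebo), from 1730 and 841 to 976 and 1617 (WT responses), and from 237 and 527 to 345 and 353 (MISS KO against WT, E2). No paired analysis was possible because the labels give no pairing. The sample titles carry a number for each array without saying what it stands for, and the replicate numbers used here only name arrays. The slide, which is no pairing of animals, entered as a block, and it changed calls of Dll4, Hes1, Hey1, Jag1, Notch2, Notch3 and Notch4. The number of arrays limits the precision, and the further probes of Dll1, Notch1 and Notch2 are dim.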
